A study of Mus musculus with 3 samples.

Results

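The neuronal-like cells described here are cells with transcripts of early neurons, picked from single-cell RNA sequencing of 3 R26-SHH rhabdoid tumours. Of 1179 such cells, 83 carried oligodendrocyte precursor genes and together held 69 of the 78 Smarcb1 transcripts counted. By tumour these were 56 of 58, 10 of 13 and 3 of 7, so not most in tumour 3. For the 83 cells as a group the data go against the name tumour cell. Only 46 of all 1179 cells held a Smarcb1 transcript, so the name was not settled cell by cell. Each of the 3 tumours was taken fresh from the basal ganglia of a different Rosa26-CreERT2::Smarcb1flox/flox mouse on a mixed 129/SV×C57BL/6 background. In this line tamoxifen activates the Cre recombinase, which removes Smarcb1, and the Rosa26 locus is active in most cell types, so recombination is not tied to 1 lineage. Smarcb1 encodes a core subunit of the SWI/SNF chromatin remodelling complex. The tumours were dissociated with Liberase and loaded without sorting, so immune, vascular and other host cells were present. All 3 samples belong to this single group, there was no normal tissue, and every test below compares cell classes within the same tumours. Differences between the tumours are given as descriptions.

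A cell was a member when it had at least 3000 UMIs (unique transcript molecules), at most 15% mitochondrial UMIs and UMIs of at least 3 of the 6 neuronal genes Dcx, Stmn2, Stmn3, Elavl3, Elavl4 and Tubb3, with Dcx or Stmn2 among them. Cells with UMIs of 2 or more of C1qa, Tyrobp and Ctss (immune) or of Cldn5, Pecam1 and Flt1 (endothelial) were left out. This gave 1179 members among 28380 barcodes, with 569, 492 and 118 from tumours 1, 2 and 3. Of the cells inside the limits on depth, mitochondrial share and host markers they made up 10.4% (95% exact binomial interval 9.63 to 11.3), 19.3% (17.8 to 20.9) and 4.64% (3.86 to 5.53) in the same order, or 11.5% ± 7.38 (SD, n = 3). These intervals cover counting error only, and the difference between tumours was not tested. The comparison class was the Sox2-positive cells outside the gate under the same limits, with 3773, 1497 and 2112 cells. Sox2 is a transcription factor of neural stem and progenitor cells.

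As background, a newborn neuron leaves the cell cycle, lowers Notch signalling and the repressor Rest, and switches on proneural basic helix-loop-helix factors such as Neurod1. It then builds a microtubule skeleton with doublecortin (Dcx), stathmins and tau (Mapt), and later the machinery of vesicle release and of electrical signalling. In the same transition the SWI/SNF complex exchanges the subunit Actl6a for its neuronal counterpart Actl6b. In the developing basal ganglia most such neurons come from the ganglionic eminences, where Dlx factors specify inhibitory neurons that make GABA through Gad1 and Gad2.

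The depth of members and comparison cells was close, with medians of 9259, 8245.5 and 19242 UMIs in the members against 10498, 8647 and 20503 in the Sox2-positive cells. Tumour 3 was the deepest. The 3 libraries shared 22 to 42 cell barcodes pairwise, and no member barcode was shared. The labels give 1000 targeted cells per library against 6428 to 12467 barcodes in the matrices, of which 3120 to 6577 reached 3000 UMIs. A high Scrublet doublet score was found in 13.0, 8.33 and 2.54% of members and in 8.80, 3.87 and 3.93% of Sox2-positive cells. These cells were kept, and without them the main comparison below gave 1411 genes higher and 1425 lower.

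The 6 gate genes chose the cells and are given as a description. Dcx, a microtubule-binding protein of migrating neurons, stood at 186, 164 and 131 CPM (UMIs of the gene per 1000000 UMIs of the summed cells) in the members of tumours 1, 2 and 3, and at 5.55, 11.3 and 1.61 CPM in the Sox2-positive cells. Stmn2, a stathmin of growing axons, stood at 321, 372 and 413 CPM against 19.5, 36.4 and 6.06. Elavl4, a neuronal RNA-binding protein, was at 686, 442 and 616 CPM against 203, 149 and 223, so it was common outside the gate too. Tubb3, the neuronal beta-tubulin, was at 302, 249 and 415 CPM against 19.3, 19.3 and 11.3. A member held a median of 15, 11 and 22.5 UMIs of the 6 genes together. The 403 members just inside the gate, with exactly 3 genes, held a median of 7, 6 and 9 such UMIs. The 2043 cells just outside it, with exactly 2, held 4, 3 and 6. A further 309, 121 and 78 cells had 3 or more gate genes without Dcx or Stmn2 and were not members.

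Membership moved with depth. When every cell was thinned to 3000 UMIs before the rule was applied, 50.3, 49.0 and 46.6% of the members still met it, and the shares became 5.35, 9.96 and 2.16%. The order of the tumours stayed as before. Below 3000 UMIs, 101, 219 and 12 further barcodes met the other conditions with median depths of 1907, 1547 and 2115 UMIs. They are not analysed here.

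Neurod1, which is not a gate gene, served as the check of the label. It lies at chr2:79452521-79456751 (mm10, minus strand), shares exon sequence on its strand with Cerkl, and was at 64.0, 44.8 and 45.7 CPM in members. The Sox2-positive cells held 6.16, 6.18 and 0.469 CPM, and immune cells 3.58, 1.49 and 0 CPM. All members' values were above all others. At 3000 UMIs per cell the classes were drawn again on the thinned counts, which gave 292, 254 and 55 members. Of these, 18.5, 13.0 and 29.1% had a Neurod1 UMI. The shares were 1.30, 1.16 and 0.141% in Sox2-positive cells and 1.03, 0.176 and 0% in immune cells at the same depth. With all UMIs these shares were 17.9, 13.6 and 23.7% in members, 2.07, 2.20 and 0.568% in Sox2-positive cells and 1.03, 1.11 and 0% in immune cells. Sox2 itself was not lost from the gate: 69.2, 68.1 and 78.0% of members held a Sox2 UMI, against 31.5, 24.2 and 42.9% of immune cells. In the members drawn again at 3000 UMIs the shares were 36.0, 36.6 and 27.3%, above the 9.76, 9.31 and 7.32% seen in immune cells, which should lack Sox2.

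The targeted gene was nearly absent from most members but not from all. Smarcb1 (chr10:75896769-75921617, mm10, minus strand) was at 9.24, 2.56 and 2.42 CPM in members, from 58, 13 and 7 UMIs. Of these 78 UMIs, 69 lay in the 83 members (49, 29 and 5 cells) that also held UMIs of at least 2 of Olig1, Pdgfra and Sox10, genes of oligodendrocyte precursor cells. By tumour these were 56 of 58, 10 of 13 and 3 of 7 UMIs. In those cells Smarcb1 was at 96.0 CPM (95% exact Poisson interval 72.6 to 125), 32.3 CPM (15.5 to 59.3) and 49.7 CPM (10.2 to 145). Endothelial cells of the same tumours, which are host cells by their markers, held 34.5, 31.6 and 45.6 CPM and immune cells 21.6, 14.2 and 14.1. In the other 520, 463 and 113 members Smarcb1 was at 0.351 CPM (0.0425 to 1.27), 0.630 CPM (0.130 to 1.84) and 1.41 CPM (0.385 to 3.62), below every immune and endothelial value. The Sox2-positive cells held 1.01, 2.5 and 0.694 CPM. The 83 cells with oligodendrocyte precursor genes made up 8.61, 5.89 and 4.24% of members. The Olig1, Pdgfra and Sox10 split was made after these values were seen, and intervals here cover counting error only. Where the removed Smarcb1 sequence lies relative to the 3′ tags is not given in the sources used here.

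**Figure D1:**
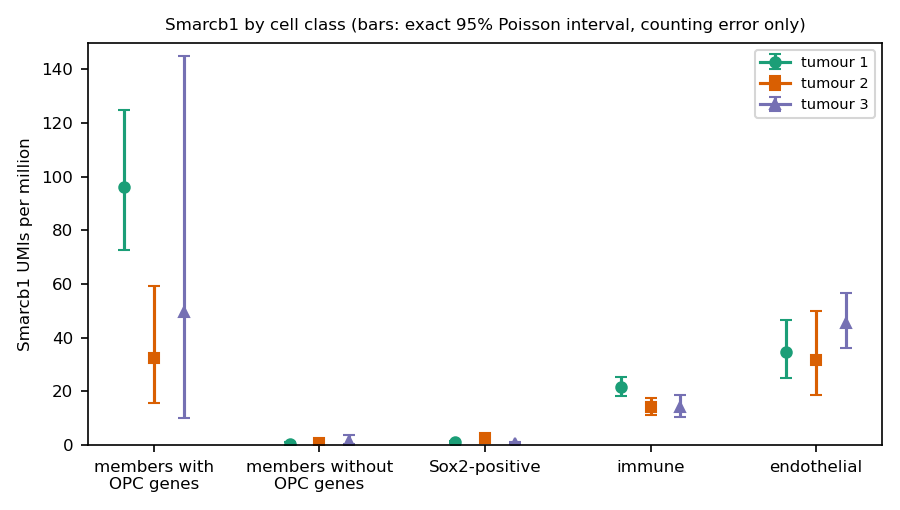
Smarcb1 level (vertical axis, CPM) in 5 cell classes (horizontal axis), 1 point per tumour with its exact 95% Poisson interval. Members with oligodendrocyte precursor (OPC) genes stand at 96.0, 32.3 and 49.7 CPM, in the range of endothelial cells or above it, while the other members stand at 0.351, 0.630 and 1.41.

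The members rich in the neuronal long transcript Snhg11 were looked at in the same way, since Snhg11 is abundant in mature neurons. This split, too, was made after values were seen. Members with at least 3 Snhg11 UMIs and without oligodendrocyte precursor genes numbered 14, 72 and 2. In tumour 2 they held 0 Smarcb1 UMIs of 587660, for an upper 95% exact Poisson bound of 6.28 CPM, below the lower bound of 11.2 CPM for that tumour's immune cells. In tumour 1 they also held 0, but of 142955 UMIs, for an upper bound of 25.8 CPM, which does not separate them from immune cells. The 2 such cells of tumour 3 held 2 Smarcb1 UMIs. Sums of other cell type markers were compared in the same way. The 12 immune markers summed to 212, 439 and 128 CPM against 272, 539 and 178 in Sox2-positive cells, with 1 of 12 at 0 in tumour 3. The 10 endothelial markers summed to 5.73, 9.47 and 13.5 CPM against 10.6, 9.47 and 7.33. The 12 oligodendrocyte markers summed to 1550, 1190 and 125 CPM against 394, 1290 and 61.4, so they were higher in the members of tumours 1 and 3 only. The 8 astrocyte markers summed to 356, 355 and 351 CPM against 290, 419 and 168. The part of these cell types in the results below was not tested beyond leaving out the cells with oligodendrocyte precursor genes.

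Members were compared with Sox2-positive cells on counts summed per tumour, with tumour as a block, by edgeR (quasi-likelihood), and p-values were adjusted after Benjamini and Hochberg over 14062 genes. The 6 gate genes, the 6 host markers and Sox2 were left out of the test. Members had 1453 genes higher (10.3% of those tested) and 1491 lower (10.6%) at an adjusted p under 0.05. Since the cells were chosen for neuronal genes, other genes that go with these are higher through that choice, and the test tells which they are. The comparison cells were chosen for a Sox2 UMI, which members need not hold, so genes that go with Sox2 can be lower through that choice. A fit without the tumour term gave 9 genes higher and 0 lower (1127 and 669 at an unadjusted p under 0.05). DESeq2 with the tumour term gave 1244 and 1150. Leaving out tumour 1 gave 323 and 166, leaving out tumour 2 gave 680 and 310, and leaving out tumour 3 gave 1807 and 1750.

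**Figure D2:**
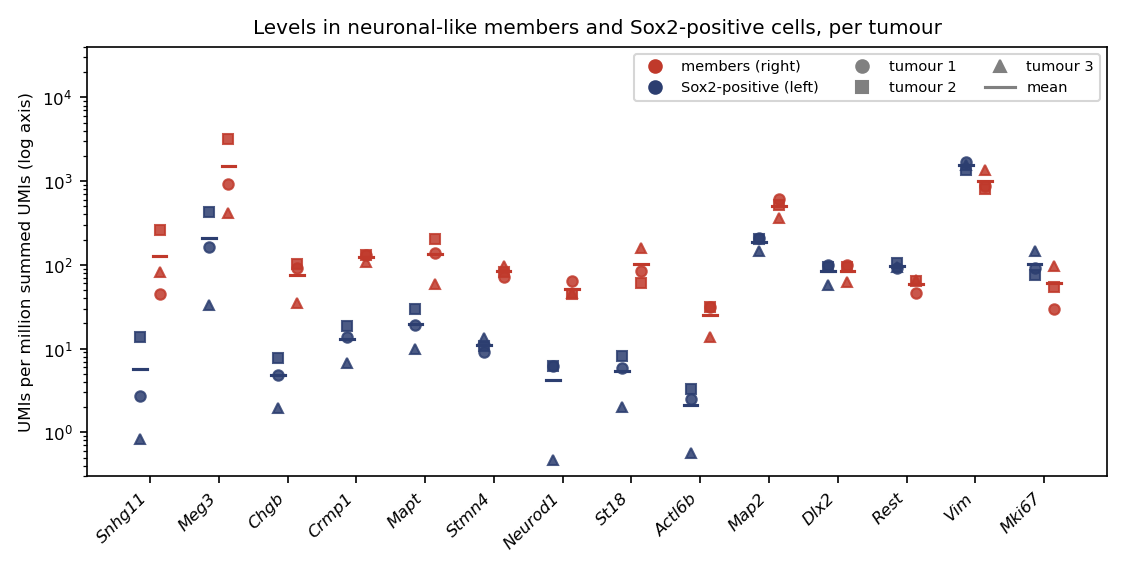
Levels of 14 genes (vertical log axis, CPM) in the Sox2-positive cells (left of each pair) and in the members (right), 1 symbol per tumour, with the mean as a line. Genes from Snhg11 to Map2 are higher in the members of every tumour, Dlx2 overlaps fully, and Rest, Vim and Mki67 are lower in the members of every tumour.

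The 12 leading genes, those with the largest differences among genes at 50 CPM or more in members, included the long transcripts Snhg11 and Meg3. Snhg11 (chr2:158375638-158386145, plus strand) was at 44.9, 259 and 82.0 CPM in members and at 2.75, 13.6 and 0.837 CPM in Sox2-positive cells. Members were higher by 4.63 ± 0.43 (SE) on the log2 scale (adjusted p = 0.00261). Meg3 (chr12:109541001-109571726, plus strand), an imprinted transcript abundant in neurons that lies opposite Gm26906, was at 923, 3200 and 416 CPM against 163, 430 and 33.5, a log2 difference of 2.87 ± 0.20 (adjusted p = 0.00155). Tumour 2 held the highest level of both in both classes, and members were above Sox2-positive cells in all 3 tumours. Of 8 neuronal long non-coding RNAs tested 6 were higher and 1, Neat1, was lower. Chgb (chr2:132781278-132795079, plus strand), a chromogranin of dense-core vesicles, was at 92.2, 103 and 34.6 CPM against 4.90, 7.69 and 1.96 (log2 difference 3.92 ± 0.12, adjusted p = 0.000129). Pcsk2, which cleaves neuropeptide precursors inside these vesicles, was at 42.4, 54.9 and 57.8 CPM against 6.87, 10.3 and 3.02 (2.94 ± 0.34, adjusted p = 0.00417).

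The promoters of Snhg11, Chgb and Pcsk2 are shown because they are 3 of the 12 leading genes and each holds the E-box CAGCTG, a sequence read by proneural factors, in capitals. The windows run from 250 bases before to 50 after the gene's start in RefSeq (GRCm38.p6, plus strand, at chr2:158375463-158375762, chr2:132781392-132781691 and chr2:143545883-143546182). GENCODE, whose positions are given elsewhere in the text, places the starts differently, and by it the Chgb window lies inside the gene and the Snhg11 motif just after the start.
Snhg11: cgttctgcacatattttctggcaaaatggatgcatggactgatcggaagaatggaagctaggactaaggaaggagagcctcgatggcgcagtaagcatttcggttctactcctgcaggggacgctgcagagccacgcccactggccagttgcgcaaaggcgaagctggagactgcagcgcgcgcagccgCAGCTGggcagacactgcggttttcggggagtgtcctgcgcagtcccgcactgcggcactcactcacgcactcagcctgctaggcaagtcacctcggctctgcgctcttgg
Chgb: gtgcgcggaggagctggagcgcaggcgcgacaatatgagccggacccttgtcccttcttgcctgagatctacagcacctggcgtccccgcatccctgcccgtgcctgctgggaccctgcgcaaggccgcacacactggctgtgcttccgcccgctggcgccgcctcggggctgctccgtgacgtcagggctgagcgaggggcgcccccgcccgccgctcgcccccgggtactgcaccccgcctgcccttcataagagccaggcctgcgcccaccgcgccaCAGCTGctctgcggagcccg
Pcsk2: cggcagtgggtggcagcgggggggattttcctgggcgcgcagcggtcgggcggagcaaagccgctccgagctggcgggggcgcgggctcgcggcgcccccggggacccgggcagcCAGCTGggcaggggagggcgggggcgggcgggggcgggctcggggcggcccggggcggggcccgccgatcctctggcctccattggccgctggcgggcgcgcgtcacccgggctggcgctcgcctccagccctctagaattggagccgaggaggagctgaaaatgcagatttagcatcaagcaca
Promoters were matched by symbol for 1064 of the 1453 higher genes, 1163 of the 1491 lower genes and 10573 of 14059 symbols tested. CAGCTG, which reads the same on both strands, was found in 21.8% of the promoters of higher genes, 12.6% of those of lower genes, 15.2% of all tested and 16.3% of all 32851 promoters. CAGATG, searched on both strands, was found in 12.4, 10.3, 11.4 and 17.2% in the same order. TTCAGCACC, 1 arm of the element bound by Rest, was found in 0.720, 0.273, 0.425 and 0.371% on either strand. Of 11 motifs counted, CAGCTG had the largest gap in percentage points between higher and lower genes and CCAAT the next, with 33.8 against 42.0%. Rarer motifs such as TTCAGCACC and GGCACCTG, the latter at 2.16 against 1.03%, differed more as a ratio. A match is a description of the letters, and no test was made.

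Cytoskeletal and axon growth genes were higher as a group: 39 of 51 tested passed the threshold as higher and 2 (Fez1 and Kif21a) as lower, with a median log2 difference of 0.93 against -0.03 over all genes. Stmn4, a stathmin of neurites, was at 71.8, 82.7 and 98.2 CPM in members and 9.20, 10.9 and 13.4 in Sox2-positive cells (2.80 ± 0.08, adjusted p = 0.000129). Crmp1, a collapsin response mediator, was at 131, 133 and 108 CPM against 13.6, 18.4 and 6.69 (3.24 ± 0.20, adjusted p = 0.00112). Mapt, which encodes tau, was at 138, 202 and 59.8 CPM against 19.2, 29.8 and 9.86 (2.63 ± 0.08, adjusted p = 0.000129). Members were higher in every tumour for these 3 genes, and no tumour's members overlapped with Sox2-positive cells of any tumour. The dendritic protein Map2 differed less, at 611, 523 and 365 CPM against 208, 206 and 145 (1.29 ± 0.06, adjusted p = 0.000575). Gap43, a growth cone protein, was at 160, 258 and 56.0 CPM against 52.4, 56.4 and 5.39 (2.14 ± 0.29, adjusted p = 0.0059), and its members in tumour 3 overlapped with Sox2-positive cells of tumour 2. Gng3 and Stmn4 passed the threshold in all 17 alternatives.

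Of 40 genes of vesicle release tested 33 were higher and none lower, with a median log2 difference of 1.55. Syt4, a synaptotagmin, was at 67.4, 75.8 and 27 CPM against 6.58, 10.1 and 4.02 (2.92 ± 0.14, adjusted p = 0.000575). Syt1, the calcium sensor of fast release, was at 95.6, 102 and 185 CPM against 31.4, 31.0 and 63.8 (1.5 ± 0.07, adjusted p = 0.000575). Snap25, of the release SNARE complex, was at 55.9, 78.3 and 41.2 CPM against 16.4, 23.3 and 3.14 (2.16 ± 0.36, adjusted p = 0.0114, and 0.0552 without tumour 1). Members were higher within every tumour for all 3 genes. Of 22 postsynaptic scaffold genes 11 were higher, among them Shank1 (2.04 ± 0.17) and Cnih2 (2.10 ± 0.15), and none was lower. In the dense-core vesicle list 11 of 20 were higher and none lower.

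Most channel and receptor genes tested were higher too, and 11 of each list did not pass. Of 38 voltage-gated channel genes 26 were higher and 1 (Kcnc2) lower, with a median log2 difference of 1.16. Cacna1b, the pore subunit of the N-type calcium channel, was at 15.1, 22.9 and 15.6 CPM against 1.52, 2.23 and 0.694 (3.55 ± 0.29, adjusted p = 0.00206). Of 32 transmitter receptor genes 21 were higher and none lower, with a median of 1.29. Of 53 guidance and adhesion genes 20 were higher and 3 lower. Ncam1, a neural adhesion molecule, was at 333, 418 and 316 CPM against 77.1, 114 and 45.1 (2.14 ± 0.17, adjusted p = 0.00196), and the receptor Epha5 at 105, 104 and 62.6 against 20.5, 27.5 and 5.49 (2.41 ± 0.27, adjusted p = 0.00388).

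Neuronal splicing factors followed. Of 21 RNA-binding and splicing genes 15 were higher and 2 lower, with a median log2 difference of 0.83. Celf3 was at 68.2, 49.3 and 40.8 CPM against 6.20, 9.53 and 2.02 (3.22 ± 0.33, adjusted p = 0.00313). Srrm3 and Srrm4, which promote neuronal microexons, had log2 differences of 3.67 ± 0.33 and 3.02 ± 0.30, with Srrm4 at 34.4, 37.9 and 2.08 CPM in members against 3.13, 6.44 and 0.0612. The members of tumour 3 thus held less Srrm4 than the Sox2-positive cells of tumours 1 and 2. The lower genes were Ptbp1, a repressor of neuronal exons (-0.54), and Msi1, an RNA-binding protein of progenitors (-0.21).

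**Figure D3:**
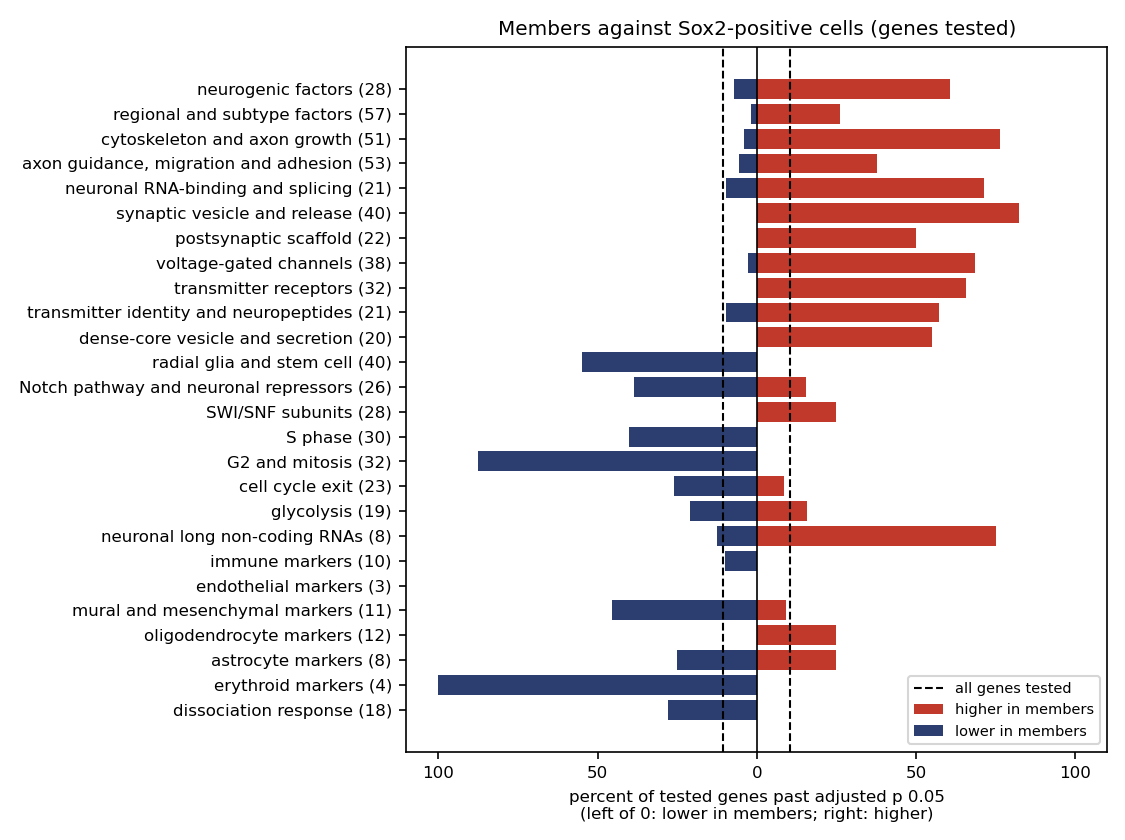
Percent of the tested genes of each list (number in brackets) that passed an adjusted p of 0.05 as higher (right of 0) or lower (left of 0) in members against Sox2-positive cells. Dashed lines mark 10.3 and 10.6% for all genes tested: 82.5% of the vesicle release genes were higher and 87.5% of the G2 and mitosis genes lower.

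Among 28 neurogenic transcription factors tested 17 were higher and 2 (Btg1 and Btg2) lower, with a median log2 difference of 1.23. Neurod1 had a log2 difference of 3.81 ± 0.59 (adjusted p = 0.00931, and 0.0607 without tumour 1). St18, a zinc finger factor (chr1:6487231-6860940, plus strand), was at 83.6, 61.2 and 160 CPM against 5.89, 8.15 and 2.00 (4.2 ± 0.60, adjusted p = 0.00685, and 0.0529 without tumour 1). Pou2f2 was at 99.1, 54.3 and 112 CPM against 12.1, 7.10 and 8.74 (3.11 ± 0.16, adjusted p = 0.000624). For these 3 factors the lowest member value lay above the highest Sox2-positive value. Nhlh2, a basic helix-loop-helix factor of postmitotic neurons (chr3:102010076-102015492, plus strand), was at 13.5, 8.09 and 86.8 CPM against 0.246, 0.329 and 0.755 (6.10 ± 0.37, adjusted p = 0.00111).

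Of 57 regional and subtype factors tested 15 were higher and 1 (Irx3) was lower. Dlx2, a factor of the ganglionic eminences (chr2:71543408-71546754, minus strand), was at 98.7, 94.9 and 63.0 CPM in members and 100, 94.7 and 57.6 in Sox2-positive cells (-0.09 ± 0.07, adjusted p = 0.374). Its sign changed under 2 of 17 alternatives without a call. The later factors of the same family, Dlx5 and Dlx6, were higher by 1.11 and 1.52 on the log2 scale. Lhx9 was at 37.4, 27.2 and 30.4 CPM against 3.51, 5.46 and 0.980 (3.36 ± 0.44, adjusted p = 0.00537, and 0.0565 without tumour 1). Isl1, a LIM factor of striatal and other neurons, was at 78.2, 62.5 and 104 CPM against 14.3, 29.3 and 14.2 (2.04 ± 0.31, adjusted p = 0.00881, and 0.0792 without tumour 1). Pou4f1 was at 8.76, 9.47 and 23.5 CPM against 3.42, 5.78 and 1.84 and did not pass (1.79 ± 0.55, adjusted p = 0.0679), though it did in 6 of 17 alternatives.

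Both inhibitory and excitatory transmitter genes were higher in members. Gad2, which makes GABA, was at 47.0, 112 and 45.7 CPM in members against 9.71, 31.6 and 4.43 (2.29 ± 0.26, adjusted p = 0.00401). Of the members drawn again at 3000 UMIs per cell, 18.8, 36.6 and 12.7% held a Gad1 or Gad2 UMI. The shares were 3.49, 10.5 and 0.914% in Sox2-positive cells and 4.16, 15.3 and 1.49% in the committed progenitors described below. In immune cells they were 1.03, 4.04 and 1.63%. With all UMIs the member shares were 26.4, 43.5 and 13.6% and the immune shares 3.24, 6.68 and 3.73%. Slc17a6, the vesicular glutamate transporter of subcortical neurons, was at 5.57, 7.5 and 2.77 CPM against 0.134, 0.592 and 0 (4.80 ± 0.67, adjusted p = 0.00657, and 0.0744 without tumour 1). Only 1.71, 2.76 and 1.82% of the members drawn again at 3000 UMIs held its UMI, against 0, 0.176 and 0% of immune cells. With all UMIs it was 2.64, 4.67 and 2.54% of members against 0, 0.795 and 0% of immune cells. Of 21 transmitter and neuropeptide genes tested 12 were higher, and the neuropeptide genes Nts and Npy were lower by log2 differences of -2.32 and -1.99.

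Of 28 SWI/SNF subunit genes tested 7 were higher and none lower, with a median log2 difference of 0.12. Actl6b (chr5:137553517-137569582, plus strand) was at 31.4, 31.4 and 13.8 CPM in members and 2.53, 3.29 and 0.571 in Sox2-positive cells (3.61 ± 0.26, adjusted p = 0.00155). Its counterpart Actl6a was at 88.1, 71.4 and 78.9 CPM against 81.8, 84.1 and 89.4 and did not pass (-0.22 ± 0.08, adjusted p = 0.108). The other neuronal subunits Dpf1 (1.5 ± 0.18), Dpf3 (0.96 ± 0.20) and Ss18l1 (0.66 ± 0.12) passed in the main test, and their adjusted p was 0.0516, 0.156 and 0.118 without tumour 1. Without tumour 2 that of Dpf3 and Ss18l1 was 0.172 and 0.0789. Smarcb1 did not pass (1.71 ± 0.62, adjusted p = 0.103) but did in 3 of 15 alternatives. Over all tumours 69 of its 78 UMIs in members lay in the cells with oligodendrocyte precursor genes, but 3 of 7 in tumour 3.

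Part of the stem cell and Notch genes were lower than in the Sox2-positive cells, which were chosen for a stem cell gene. Of 40 radial glia and stem cell genes 22 were lower, none was higher and 18 did not pass, with a median log2 difference of -0.57. The committed progenitors described below were not chosen for Sox2, though most held it. Against them 11 of 40 were lower and 3 higher, or 13 and 0 without the cells with oligodendrocyte precursor genes. Vim, the filament protein of radial glia, was at 881, 803 and 1370 CPM in members and 1710, 1360 and 1550 in Sox2-positive cells (-0.75 ± 0.14, adjusted p = 0.0152, and 0.114 and 0.106 without tumour 1 or 2). Zfp36l1 was at 595, 793 and 586 CPM against 1120, 1320 and 905 (-0.88 ± 0.07, adjusted p = 0.00194). It lies opposite the transcript Gm26669, with which it shares exon sequence and which was also lower (-1.16 ± 0.10). Of 26 genes of the Notch pathway and neuronal repressors 10 were lower, 4 were higher and 12 did not pass. Id3, an inhibitor of proneural factors, was at 236, 328 and 479 CPM against 558, 514 and 1010 (-1.11 ± 0.12, adjusted p = 0.00361). The Notch targets Hes5 and Hes1 had log2 differences of -1.01 ± 0.14 and -0.98 ± 0.07. Rest, the repressor of neuronal genes (chr5:77265491-77286432, plus strand), was at 46.8, 65.1 and 66.4 CPM against 91.9, 104 and 93.8 (-0.84 ± 0.10, adjusted p = 0.00453), and all members' values were below all Sox2-positive values. The 4 higher genes were Rbpj and the ligands and modifier Jag2, Dll4 and Mfng, with Mfng at 25.5, 11.2 and 23.2 CPM against 4.99, 4.54 and 3.16. Jag2 passed in 9 of 16 alternatives and Dll4 in 13, and without tumour 1 the adjusted p of Jag2, Dll4 and Mfng was 0.207, 0.0786 and 0.0742.

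Of 32 G2 and mitosis genes 28 were lower and none higher (median -0.88), and of 30 S phase genes 12 were lower, none was higher and 18 did not pass (median -0.63). Birc5, a mitotic survivin, was at 22.9, 28.4 and 42.5 CPM against 61.8, 46.1 and 62.7 (-1.03 ± 0.18, adjusted p = 0.0124). Mki67 was at 30.1, 54.7 and 98.2 CPM against 90.7, 76.0 and 145 (-0.98 ± 0.22, adjusted p = 0.026), and Top2a at 126, 129 and 283 against 311, 219 and 360 (-0.92 ± 0.17, adjusted p = 0.0152). Without tumour 2 their adjusted p was 0.0556 and 0.0778, and without tumour 1 that of Top2a was 0.0611. At 3000 UMIs, with both classes drawn again, 6.16, 6.69 and 9.09% of members held a Mki67 or Top2a UMI, against 16.9, 15.7 and 24.9% of Sox2-positive cells. Members that left the gate on thinning but kept a Sox2 UMI count among the latter. The mean difference was -11.8 percentage points ± 3.59 (SD, n = 3), in the same direction in 3 of 3 tumours, with p = 0.25 in an exact two-sided sign-flip test, the smallest that 3 tumours allow. With all UMIs and the full classes the shares were 19.2, 17.1 and 32.2% against 30.6, 24.8 and 44.3%, a mean difference of -10.4 points. Immune cells held 12.8, 12.1 and 14.6% at 3000 UMIs, and the member shares are not above these. Since immune cells can divide too, they give no level free of cycling. Whether part of the members cycle cannot be told from these shares. Of 23 cell cycle exit genes 2 were higher and 6 lower. Cdkn1c, an inhibitor of cyclin-dependent kinases, was at 474, 170 and 1800 CPM against 118, 91.8 and 181 (1.99 ± 0.41, adjusted p = 0.0219, and 0.128 without tumour 1), and Cdkn1b did not pass (0.02 ± 0.08).

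Other lists were checked beside these. The oligodendrocyte genes Olig1 (2.45 ± 0.56), Sox10 (2.31 ± 0.48) and Pdgfra (1.44 ± 0.26) were 3 higher of 12 tested. When the cells with 2 or more of these genes were left out of both classes, which lowers these 3 genes by construction, the whole comparison gave 1421 genes higher and 1414 lower. Then 33 vesicle release and 41 cytoskeletal genes were higher, against 33 and 39 with these cells in. The count was lower for channels (24 against 26), receptors (19 against 21), guidance (18 against 20), postsynaptic (10 against 11) and transmitter genes (11 against 12). Of 18 genes of the dissociation response, induced by tissue handling, 5 were lower and none higher, with Fos at 1290, 2080 and 1480 CPM against 2030, 2930 and 1810 (-0.60 ± 0.07). Of 19 glycolysis genes 3 were higher and 4 lower. Of 10 immune markers tested Apoe was lower, with the opposite sign after thinning, of 3 endothelial markers none passed, of 11 mural and mesenchymal markers 1 (Cspg4, of the opposite sign without the cells with oligodendrocyte precursor genes) was higher and 5 lower, and of 8 astrocyte markers 2 were higher and 2 lower. The 4 haemoglobin genes tested were lower, and so was Ttr, a choroid plexus transcript, at 1.11, 29.4 and 0 CPM against 37.2, 571 and 0.0204. Their part in the other differences was not tested. With the immune and endothelial sums added to the fit as further classes, 725 genes were higher and 310 lower.

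The members were not uniform, and the levels of several genes differed with the number of gate genes detected. The following values leave out cells with oligodendrocyte precursor genes and are a description, because the gate genes order the cells. From exactly 2 (outside the gate) through 3, 4, 5 and 6 gate genes, Mapt in tumour 1 was at 21.5, 25.5, 78.3, 201 and 336 CPM. In tumour 2 it was at 33.3, 45, 125, 292 and 476, and in tumour 3 at 10.3, 12.5, 16, 125 and 160. For Mapt the cells with exactly 3 gate genes were thus nearer to those outside the gate than to those with 5. Meg3 already differed at 3 gate genes, at 544, 1300 and 285 CPM in tumours 1, 2 and 3 against 191, 608 and 48.3 with 2. In tumour 3 it did not follow the order, at 154 and 151 CPM with 4 and 5 gate genes and 1160 with 6. Actl6b ran from 4.30, 7.15 and 27.3 to 50.5 and 81.0 CPM in tumour 1, and Neurod1 from 4.12, 15.3 and 46.8 to 130 and 134. In tumour 3 Neurod1 was at 0.645, 0, 7.27, 79.0 and 181 CPM.

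Progenitor genes were lower in cells with 6 gate genes than in cells with 2. Rest in tumour 1 was at 92.8, 80.2, 34.9, 28.7 and 10.8 CPM from 2 to 6 gate genes, and in tumour 3 at 93.7, 101, 61.1, 23.0 and 19.5. Sox2 was at 390, 422, 326, 235 and 167 CPM in tumour 1, 345, 403, 336, 294 and 148 in tumour 2 and 405, 366, 381, 211 and 131 in tumour 3, so in tumours 1 and 2 it was highest with 3 gate genes. With 6 gate genes it was thus near the 128, 109 and 166 CPM counted in immune cells. Top2a in tumour 3 was at 441, 446, 337, 0 and 7.09 CPM, and in tumour 2 at 232, 133, 166, 89.1 and 103, so cells of tumour 2 with all 6 gate genes still held it. Dlx2 showed no such order, at 102, 92.4, 99.9, 124 and 107 CPM in tumour 1. Median depth did not rise with the number of gate genes: it was 10481 UMIs for cells with 3 and 8998 for cells with 6 in tumour 1, 9176 and 7715 in tumour 2, and 23388 and 17034 in tumour 3.

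**Figure D4:**
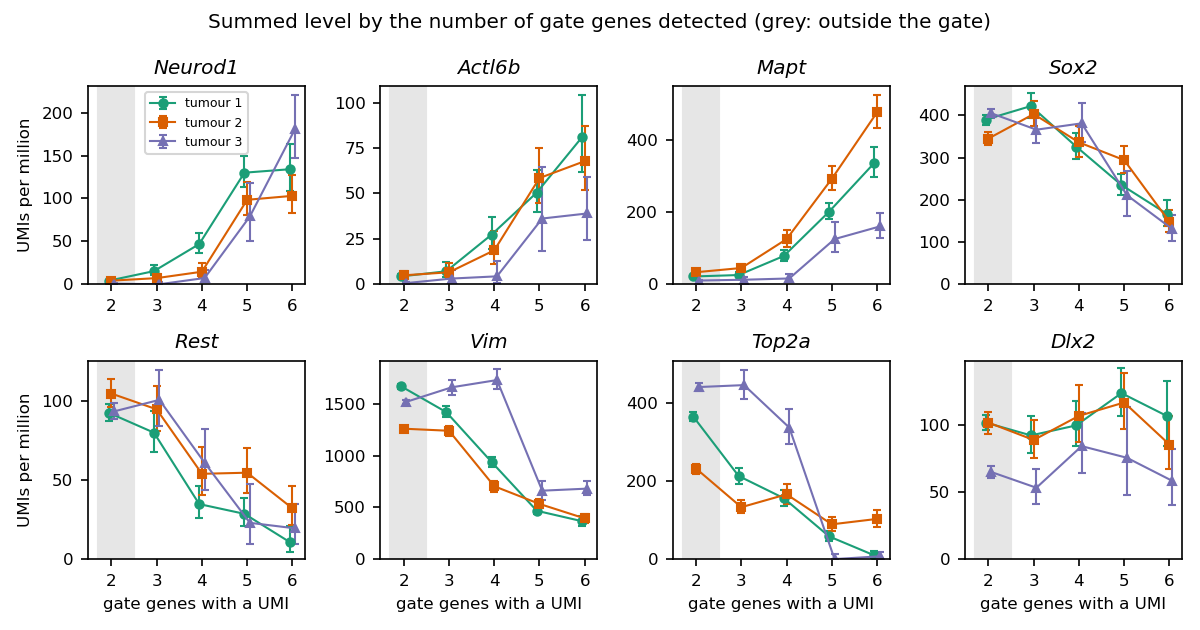
Level of 8 genes (vertical axes, CPM) against the number of gate genes with a UMI (horizontal axes), 1 line per tumour with exact 95% Poisson intervals, cells with oligodendrocyte precursor genes left out. Neurod1, Actl6b and Mapt stand higher, and Sox2, Rest, Vim and Top2a lower, in cells with 5 or 6 gate genes than with 2, while Dlx2 lies between 53.3 and 124.

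The tumours differed in which factors their members carried. By a fixed rule (at least 50 CPM in the highest tumour and 8 times the lowest) 5 of the listed factors stood apart, without a test. Nhlh1 was at 5.57, 1.97 and 73.3 CPM, Nhlh2 at 13.5, 8.09 and 86.8, and Ebf2, a factor of early postmitotic neurons, at 15.4, 4.14 and 79.9. All 3 were highest in tumour 3 and at most at 1.06 CPM in the Sox2-positive cells of any tumour. Six3, a forebrain factor, was at 9.56, 15.2 and 165 CPM in members and at 10.1, 17.6 and 145 in Sox2-positive cells, so its difference between tumours was shared by both classes. Lhx1 was highest in tumour 1, at 59.2, 13.8 and 5.19 CPM against 11.7, 6.11 and 1.35. Tumour 3 rests on 118 members, and its members also held Tfap2b at 269 CPM against 4.78 and 5.72 in tumours 1 and 2.

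**Figure D5:**
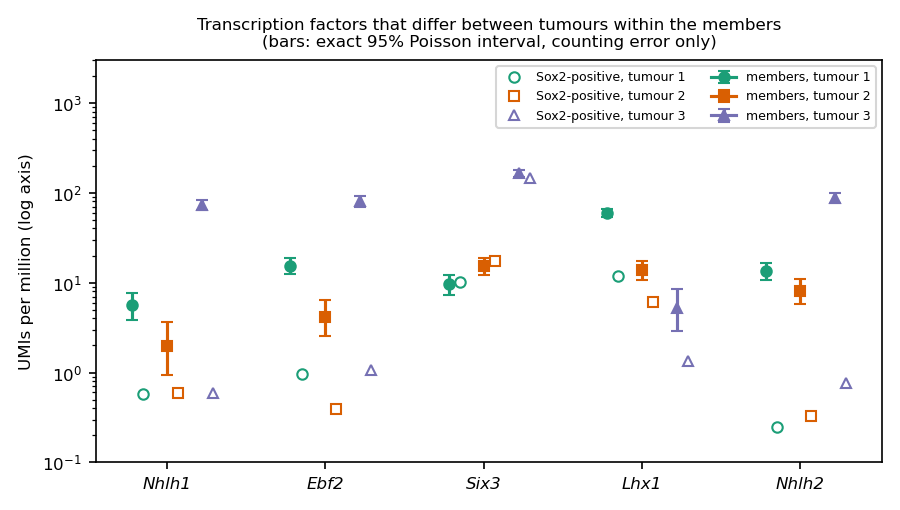
Levels of 5 transcription factors (vertical log axis, CPM) in members (filled, with exact 95% Poisson intervals) and Sox2-positive cells (open) of each tumour. Nhlh1, Ebf2 and Nhlh2 are highest in the members of tumour 3 and low in all Sox2-positive cells, while Six3 differs between tumours in both classes alike.

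Members were also compared with committed progenitors, cells outside the gate with UMIs of at least 3 of Insm1, Hes6, Gadd45g, Btg2, Dll1 and Dll3 (1816, 634 and 990 cells). This comparison shares the members with the one above, and most of its comparison cells. A Sox2 UMI was held by 83.6, 80.9 and 92.2% of the committed progenitors, which were thus in the Sox2-positive class too. The comparisons are not independent. In edgeR with the tumour as a block, 1288 of 13202 genes (9.76%) were higher in members and 1196 (9.06%) lower. Without the tumour term none passed in either direction (1000 and 430 at an unadjusted p under 0.05), and DESeq2 with that term gave 926 and 651. Leaving out tumours 1, 2 and 3 in turn gave 663, 637 and 1637 higher and 292, 256 and 1380 lower. Snhg11 led again at 2.98, 13.4 and 0.802 CPM in committed progenitors (4.60 ± 0.40, adjusted p = 0.00217), followed by Chgb at 9.65, 12.0 and 1.24 (3.41 ± 0.27, adjusted p = 0.00183). Pcsk2 was at 7.47, 8.56 and 4.09 CPM in committed progenitors (2.88 ± 0.26, adjusted p = 0.00224). Vesicle release genes were higher in 33 of 38 and cytoskeletal genes in 40 of 50, while neurogenic factors were higher in 10 of 24. Of 12 oligodendrocyte markers 5 were higher (1 without the cells with oligodendrocyte precursor genes), and all 3 haemoglobin genes tested were lower. Of 32 G2 and mitosis genes 29 were lower, and of 40 radial glia and stem cell genes 11 were lower and 3 higher (13 and 0 without the cells with oligodendrocyte precursor genes). The homeobox gene Msx3 was at 67.8, 35.1 and 46.7 CPM in members and 99.6, 79.2 and 99.2 in committed progenitors (-1.0 ± 0.12, adjusted p = 0.00427), and the Notch ligand Jag1 at 40.8, 73.0 and 6.57 against 71.9, 104 and 22.1 (-0.91 ± 0.17, adjusted p = 0.0165).

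Within the members, Dlx genes were found in more cells than Neurod genes. Of the members drawn again at 3000 UMIs per cell, 42.5, 47.2 and 30.9% held a UMI of Dlx1, Dlx2, Dlx5, Dlx6 or Dlx6os1. The share with Neurod1, Neurod2, Neurod4 or Neurod6 was 21.9, 15 and 40.0%. In tumour 3 the order was thus the opposite on these 55 cells, but not over its 118 members with all UMIs, given below. Immune cells held 8.22, 10.7 and 1.63% and 1.03, 0.176 and 0.813%. For Dlx the shares were 36.6, 38.8 and 29.2% in Sox2-positive cells and 43.8, 42.9 and 33.4% in committed progenitors, and for Neurod they were 2.49, 1.99 and 0.422% and 3.31, 3.65 and 1.19%. With all UMIs the member shares were 60.3, 67.3 and 66.9% for Dlx and 22.5, 16.5 and 29.7% for Neurod, and the immune shares 22.1, 22.9 and 28.0% and 2.21, 1.27 and 0.621%. The sets were not exclusive: at 3000 UMIs 27, 21 and 6 members held both, and Dlx was found in 42.2, 55.3 and 27.3% of members with a Neurod UMI and in 42.5, 45.8 and 33.3% of those without.

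Members with at least 2 UMIs of the Dlx genes and none of the Neurod genes (194, 177 and 43 cells) were compared with members of the reverse pattern (31, 13 and 11 cells). Because the planned minimum of 20 cells per sum left only tumour 1, sums of at least 10 cells were used, a choice made after the cell numbers were seen. In edgeR with tumour as a block, 181 of 8841 genes (2.05%) were higher and 156 (1.76%) lower in the Dlx-type. DESeq2 gave 57 and 82, a fit without the tumour term 7 and 7, and leaving out tumours 1, 2 and 3 in turn gave 96, 106 and 121 higher and 87, 79 and 116 lower. A single UMI in the Neurod-type sums equals 3.77, 10.7 and 5.0 CPM. Ebf2 was at 8.43, 0.523 and 13.0 CPM in the Dlx-type and 82.8, 21.3 and 440 in the Neurod-type (-4.24 ± 0.40, adjusted p = 5.32e-06). Neurog2, a proneural factor of excitatory lineages, was at 18.1, 8.90 and 37.1 CPM against 286, 32.0 and 540 (-3.59 ± 0.31, adjusted p = 3.85e-06). Lhx9 was at 19.7, 26.2 and 5.86 CPM against 264, 117 and 165 (-3.49 ± 0.37, adjusted p = 1.55e-05). Nrn1, a neurite growth factor, was at 16.5, 23.6 and 3.25 CPM against 162, 203 and 210 (-3.78 ± 0.38, adjusted p = 1.35e-05).

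The genes called in the stem cell, Notch and mitosis lists were all higher in the Dlx-type. Of 32 radial glia and stem cell genes 18 were higher and none lower in it, of 22 Notch and repressor genes 9 higher and none lower, and of 23 G2 and mitosis genes 11 higher and none lower. Rest was at 67.9, 61.2 and 87.9 CPM against 7.53, 32.0 and 5.00, which are 2, 3 and 1 UMIs (adjusted p = 0.00453). Of 49 cytoskeletal genes 25 were lower and 1 higher. The types also differed in the number of gate genes, since 41.8, 37.9 and 16.3% of the Dlx-type held 5 or 6 of them, against 61.3, 92.3 and 90.9% of the Neurod-type. Among the leading higher genes, Slc7a11, a cystine transporter, was at 127, 89.5 and 154 CPM against 15.1, 0 and 5.00 (4, 0 and 1 UMIs), and the mitotic gene Ube2c at 116, 24.6 and 144 against 11.3, 0 and 0 (3, 0 and 0 UMIs). The Neurod-type sums held 265580, 93745 and 199972 UMIs, against 2490737, 1910239 and 1536541 in the Dlx-type. Genes this low in the Neurod-type entered the test through the Dlx-type, where they are high. The list counts above may hold such genes and are a description. Of 14 dissociation response genes 9 were higher in the Dlx-type and none lower. With at least 4 gate genes 95 genes were higher and 57 lower, and without high doublet scores 106 and 101. Median depths were 10231, 8200 and 29535 UMIs in the Dlx-type and 7226, 6580 and 17034 in the Neurod-type. The part of depth and dissociation in this comparison was not tested.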

How the data were processed

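Fresh R26-SHH tumours of 3 mice were measured by 10x 3′ single-cell RNA sequencing, 1 library per tumour. The authors deposited 1 matrix of UMI counts per tumour, not normalized. The submitters' processing notes name Cell Ranger 3.1.0 and mm10. Total UMIs were 79529921, 40151353 and 67645602 over 31053 genes. The analysis used Python 3.11.15, scanpy 1.11.5 (Scrublet), R 4.3.3, edgeR 4.0.16 and DESeq2 1.42.0. The members and lists were chosen with earlier results of these data known.

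UMI counts were summed per tumour and class and tested by edgeR's quasi-likelihood test (TMM, filterByExpr, tumour as a block, threshold 0.05 after Benjamini-Hochberg adjustment). Both sums of a block come from the same mouse, which pairs them, so n is 3 mice. The 13 genes of the rule and the mitochondrial genes were not tested. Counting intervals are 95% exact and cover counting error only, and a floor is 3 UMIs. Shares of cells were compared after thinning to 3000 UMIs, with all classes drawn again on the thinned counts. Members at 3000 UMIs are thus the 292, 254 and 55 cells that met the rule after thinning, not all members. Cells with a high doublet score, at a rate of 0.8% per 1000 barcodes, were kept except in an alternative.

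Genes were named by a rule: a set list, up to 4 per gene list by size of difference with at least 30 UMIs, 12 higher and 12 lower over all genes with at least 50 CPM, and 8 each for the other comparisons. Actl6a, Cnih2, Dlx5, Hes1, Hes5, Tfap2b and genes given to complete small counts were named after their values were seen. Positions are from GENCODE M21 (mm10). On simulated counts for the Sox2-positive comparison (13995 genes) 71.7% of genes changed by 1 on the log2 scale and 97.7% of those changed by 2 were called, and 6 of 13808 unchanged genes. The simulation used a single fixed dispersion for every gene and changed only 99 genes by 1 and 88 by 2. In the data 20.9% of genes were called, so these rates need not hold for the real test. The alternatives were another scaling, filter or tool, no tumour block, each tumour left out, thinning, doublets removed and other cell limits. Some named genes are not reported here.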

Additional observations from a re-analysis of the deposited data

How the results depend on the processing

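With tumour as the block, the Sox2-positive comparison gave 1453 genes higher and 1491 lower. Without the block, which ignores the pairing of sums by mouse, it gave 9 and 0. The comparison with committed progenitors then gave 0 and 0, and the Dlx-type against the Neurod-type 7 and 7. Leaving out 1 tumour gave 323 to 1807 higher and 166 to 1750 lower against Sox2-positive cells, 637 to 1637 and 256 to 1380 against committed progenitors, and 96 to 121 and 79 to 116 for the Dlx-type. With the immune and endothelial sums in the fit 725 genes were higher and 310 lower. Without the filter on low counts 2423 genes were lower against Sox2-positive cells, 2065 lower against committed progenitors, and 373 higher in the Dlx-type. DESeq2 gave 651 lower against committed progenitors, and 57 higher and 82 lower in the Dlx-type. Thinning to 3000 UMIs gave 712 lower against committed progenitors among 8971 genes tested, 540 of them shared with the main list. Removing high doublet scores gave 106 higher and 101 lower in the Dlx-type, and at least 4 gate genes gave 95 and 57. The causes were not tested.

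Dlx2 turned to 0.14 against Sox2-positive cells without gate genes and to 0.03 with at least 4 gate genes. Cdkn1b turned to -0.07 against Sox2-positive cells without gate genes, -0.03 after thinning, -0.04 without the filter, and lay between -0.05 and 0.12 when a tumour was left out. Apoe turned to 0.09 after thinning. Without cells with oligodendrocyte precursor genes Cspg4 turned to -0.36, and Pdgfra to -0.68, the latter by construction since it chose the cells left out. Over the 153 named values and their alternatives 2078 kept direction and side of the threshold, 315 lost the call, 9 gained it (Pou4f1 in 6 and Smarcb1 in 3) and 9 reversed. The cycling difference lay between -14.2 and -9.83 points. The Dlx-type comparison was not run on thinned cells, and the minimum of 10 cells and the alternative without oligodendrocyte precursor genes were added after seeing the data. With 118 members in tumour 3, low genes there are limited by a summed total of 2890957 UMIs, against 6279072 and 5068312 in tumours 1 and 2. Its single cells were the deepest.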
